A study of Mus musculus with 17 samples.

Results

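The cytosolic ribosomal protein genes encode the proteins of the ribosome that translates nuclear messages in the cytoplasm. They were taken by name, as every gene symbol of the form Rpl or Rps with a number and at most 1 trailing a, l, x or y, together with Rplp0, Rplp1, Rplp2 and Rpsa. Among the listed gene symbols 81 met this rule, and 78 of them had reads, of 24438 genes with reads and 34682 genes listed. Of the 78, 48 belong to the large subunit and 30 to the small one. The question put to them was whether their levels shift together between libraries, or gene by gene with GC content and transcript length.

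RNA came from limb buds of mouse embryos at the embryonic stage E12.5 and was selected for polyA tails. WT embryos gave 4 libraries (WT 1 to 4), and mutants with structural variants at the Sox9/Kcnj locus gave the other 11. These were 2 of Dup-C and 2 of Dup-L, which carry duplications, 4 of Dup-LΔBor, which joins the duplication to a deletion, 2 of ΔBor het and 1 of ΔBor hom. Strain, zygosity of the duplications, fore- or hindlimb origin and whether replicates are separate embryos are not in the labels, so a p-value here reflects how these libraries scatter, and that scatter may be technical in part. The Dup-LΔBor columns are named R2 to R5 and could be tied to their genotype but not to single samples. The headers of R4 and R5 give the same library number, though their counts differ, so whether they are separate libraries is not settled by the labels.

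Ribosomal proteins assemble with ribosomal RNA in the nucleolus, and growing tissues such as the limb bud make them in large amounts. Their messages are among the most abundant of a cell, are short, and begin as a rule with a C and a tract of pyrimidines through which the mTOR pathway controls their translation. Loss of a single copy of several of these genes gives defects of blood or skeleton in mice and people.

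The start of the transcript is shown first, because it is a feature known for the family that the choice by name did not use. RefSeq's table for GRCm38.p6 held 70 promoters of 58 members, and 20 members had no entry there. A C at the annotated start followed by at least 4 pyrimidines (C or T), on the strand of the gene, was found in 13 of the 70 (18.6%), against 2.51% of 32851 promoters in the table. Most annotated member starts thus lacked the run, and how exact these positions are was not tested. The following stretches run 5′ to 3′ from 20 bases before the annotated start to the 20 bases from it on, and capitals mark the C and the pyrimidine run.
Rplp2, chr7:141447631-141447670, plus strand: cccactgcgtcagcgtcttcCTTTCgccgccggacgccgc
Rpl38, chr11:114668560-114668599, plus strand: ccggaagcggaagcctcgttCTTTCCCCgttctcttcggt
Rpl28, chr7:4792945-4792984, plus strand: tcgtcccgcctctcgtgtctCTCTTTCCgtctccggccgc
Rps21, chr2:180257359-180257398, plus strand: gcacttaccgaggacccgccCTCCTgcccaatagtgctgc
Rps6, chr4:86857348-86857387, minus strand: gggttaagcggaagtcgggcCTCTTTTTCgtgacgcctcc
Rpl35, chr2:39005112-39005151, minus strand: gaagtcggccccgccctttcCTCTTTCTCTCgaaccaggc
The first 4 genes fell in Dup-L, as given further on, and Rps6 and Rpl35 did not pass there, so genes with such a start stood on both sides of the threshold. Of all 13 genes with the run, 6 fell in Dup-L, beside 38 of all 75 members tested there and 16.6% of all genes. Over the whole window, from 250 bases before to 50 after the start and on both strands, CCGGAAG was found in 26 of the 70 promoters (37.1%, against 8.86% of all), GGGCGG in 40 (57.1%, against 35.7%) and TATAAA in 6 (8.57%, against 13.6%). CTCTTTC, which overlaps the pyrimidine run in some genes, was in 19 (27.1%, against 8.16%), and AAGATGGC in 7 (10%, against 2.75%). These are matches of letters only.

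Levels between genes were compared per length, as the FPKM values the authors deposited. Over the 69 members with a mean of at least 10 CPM, the reads of a gene scaled to library size, the mean WT level ran from 17.0 FPKM for Rpl13a to 2430 FPKM for Rplp1, a protein of the ribosomal stalk, with a median of 716 FPKM. Next to the top stood Rplp0, which anchors that stalk, at 1527 ± 277 FPKM (SD, n = 4), and Rpl23a, a protein near the peptide exit, at 1424 ± 182 FPKM. These neighbours did not differ beyond their spread. Rplp1 had the widest SD of the highest genes, 997 FPKM. At the low end, Rpl29 (59.0 ± 50.9 FPKM) and the paralog Rps4l (72.7 ± 19.7 FPKM) overlapped, and Rps27l, a paralog of Rps27 that p53 induces, stood at 86.2 ± 19.4 FPKM. The gene lengths behind the FPKM values are not given, so the order may depend in part on the gene models. Rps24, with a mean GENCODE transcript of 768 bases, had 875 CPM but only 178 FPKM in WT, which implies a far longer counted gene.

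The ribosome holds 1 copy of most of its proteins, yet 9 members had under 10 CPM. Rpl30 had 1 to 9 counts a library, Rpl31 6 to 17, Rps2 5 to 53, Rpl26 6 to 54, Rps27 14 to 51 and Rpl34 14 to 129, where libraries held 34486256 to 53711742 counts in all. Rpl3l, the paralog of Rpl3 known from muscle and heart, had 0 to 6 counts, Rpl10l, a testis paralog of Rpl10, had 1 count in 1 library, and Rpl39l, a testis paralog of Rpl39, had 3 to 18. Rpl10l, Rpl3l and Rpl30 were too low to test, which left 75 members tested.

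Some names outside the rule took many reads. Rps3a1, which the rule did not match, had 28715 to 65159 counts a library. Rpl31-ps12 had 2356 to 7800 counts a library where Rpl31 had at most 17. Rpl37rt had 3333 to 12601 where Rpl37, not a low member, had 8111 to 44291. Reads of near-identical copies can be split or dropped by the counting, which is not described in the sources used here, so the levels of members with such copies, Rpl31, Rpl37, Rpl29 and Rpl13a among them, are uncertain, and the same may hold for the other members with few counts. The part of such copies in any change was not tested.

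**Figure D1:**
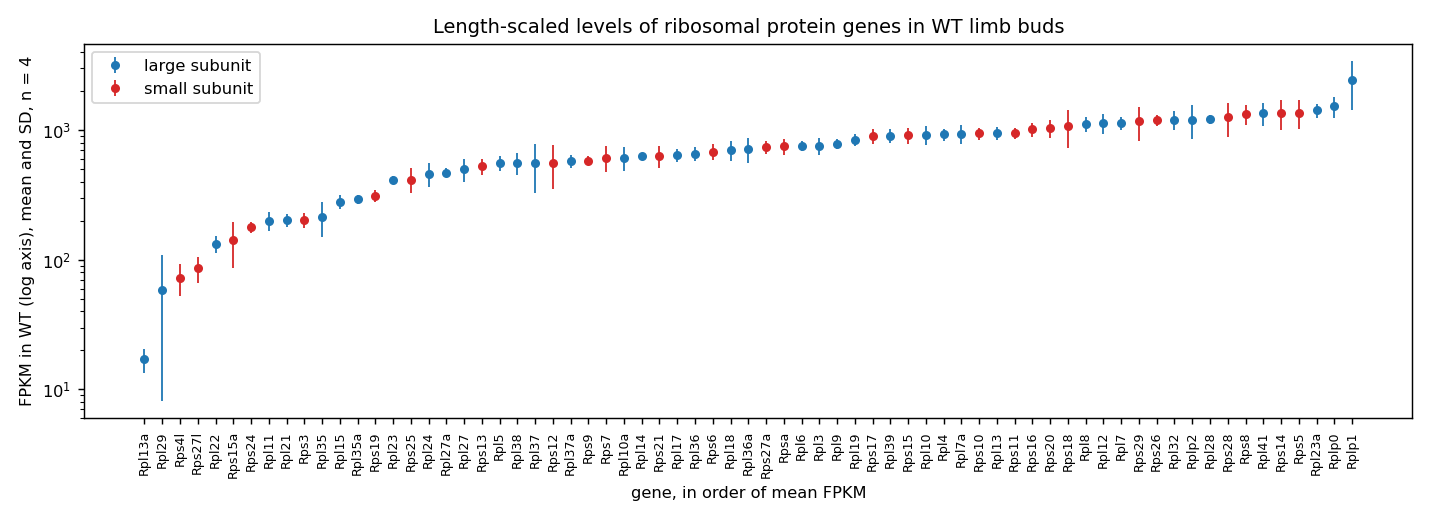
Mean FPKM of the 69 members with at least 10 CPM in the 4 WT libraries, on a log axis, with the SD as bars (the lower bar ends at 5% of the mean where the SD would reach further) and colour for the subunit. Rpl13a at 17.0 FPKM and Rplp1 at 2430 FPKM are the ends of the order, and most genes lie close to the median of 716 FPKM.

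Summed over members, ribosomal protein reads made up 3.63% to 5.72% of a library. The lowest shares were those of Dup-L 2 (3.63%), Dup-L 1 (4.06%) and ΔBor het 1 (4.14%), and the highest that of WT 3 (5.72%). Within WT the share ran from 4.41% to 5.72%, so the WT libraries alone spanned much of the range. Of the 4 Dup-LΔBor libraries, R2, R3 and R4 lay at 5.14%, 5.14% and 5.18% and R5 at 4.66%.

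Each member's log2 CPM was then set against its own mean over the 15 libraries. The median of these deviations over the 69 members was 0.10, -0.12, 0.29 and -0.06 in WT 1 to 4, 0.21 and 0.25 in Dup-C, -0.23 and -0.43 in Dup-L, and -0.15 and -0.03 in ΔBor het. It was 0.08, 0.08, 0.07 and -0.10 in R2 to R5, and 0.02 in ΔBor hom. Dup-L was thus the group with both libraries below every WT library, and Dup-C 1 and 2 stood above all WT libraries but WT 3.

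The shifts were not uniform within a library. In Dup-L 2, 60 of the 69 members were below their mean and the distance between the quartiles of the deviations was 0.48 on the log2 scale, against 0.20 in WT 1 and in Dup-C 1. Over all genes tested this distance was also widest of these 3 libraries in Dup-L 2, at 0.563, against 0.332 in WT 1 and 0.245 in Dup-C 1. Across members, the deviation ran against GC content (Spearman's rho, n = 69 genes, which share libraries and are not independent) in Dup-L 1 (-0.56), Dup-L 2 (-0.60), ΔBor het 1 (-0.52) and ΔBor hom (-0.50). It ran with GC content in WT 3 (0.43), WT 4 (0.38) and R2 to R4 (0.42 to 0.44). Over all genes the sign was the same in each of these libraries, with rho of -0.60, -0.67, -0.64 and -0.43 in the first 4.

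**Figure D2:**
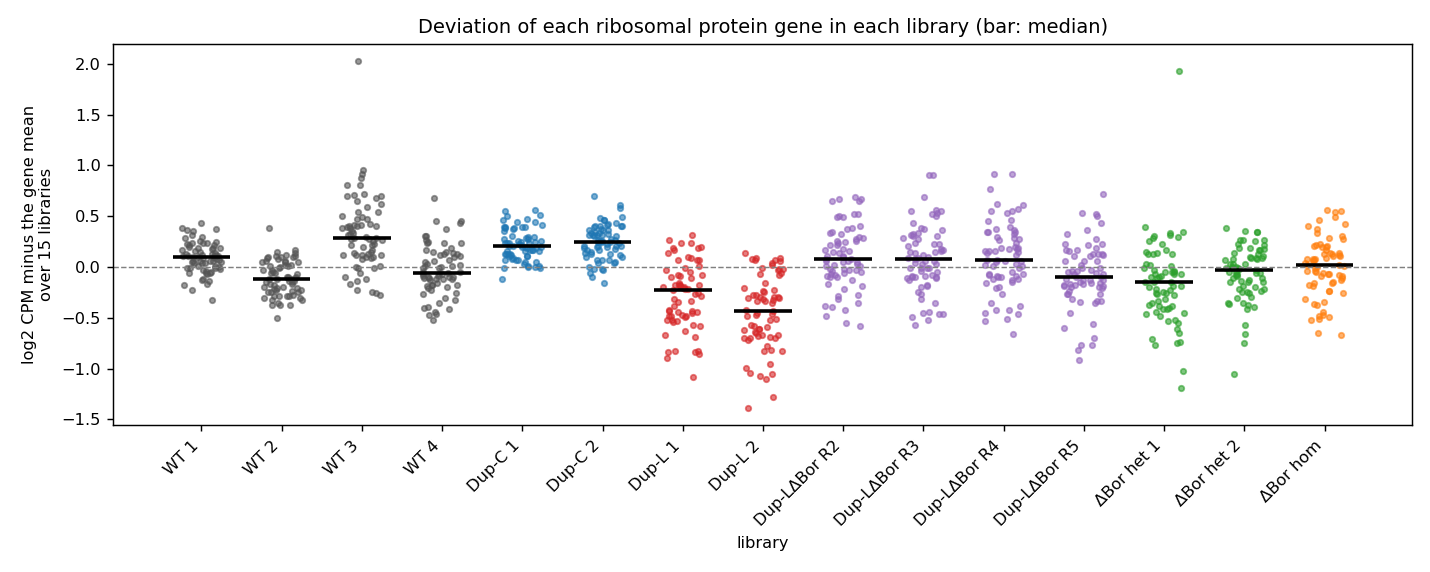
Deviation of each of the 69 members from its own mean log2 CPM over 15 libraries (y axis), by library (x axis), with a bar at the median and colour for the group. Dup-L 1 and 2 have the lowest medians (-0.23 and -0.43), and the single high points of WT 3 and ΔBor het 1 are Rpl29.

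Other features of the libraries moved with these values. Pitx1, the hindlimb regulator, was at 59.8 and 70.1 CPM in WT 1 and WT 3, at 1.83 CPM in WT 2 and in WT 4, at 0.518 and 0.677 CPM in Dup-L, and at 39.9 to 116 CPM in all others. Tbx4, also a hindlimb gene, fell in Dup-L (-1.42, edgeR adjusted p = 0.0248). The WT libraries low in Pitx1 also had the lower member medians (-0.12 and -0.06, against 0.10 and 0.29). All 15 limb mesenchyme markers were high enough to test, and in Dup-L 2 of them rose and 5 fell, where 15.8% of all genes rose and 16.6% fell. With the offsets 0 rose and 2 fell, Msx1 among them (-1.32, edgeR adjusted p = 0.0436). Prrx1 was at 828 and 916 CPM in Dup-L against 548 to 732 CPM in WT, and Msx1, which fell (-1.73, edgeR adjusted p = 0.00849), at 13.3 and 10.8 CPM against 38.2 to 41.0 CPM. The library numbers in the column headers fall in 2 ranges, the second holding WT 3, WT 4 and Dup-LΔBor and the first all the rest. The text calls them the first and second number range.

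WT libraries of the second number range differed from those of the first in single ribosomal protein genes. Of the 75 tested members, 25 were higher in both WT 3 and WT 4 than in both WT 1 and WT 2, and 11 were lower, against 21.1% and 23.4% of all genes. Rplp1 was at 871 and 790 CPM in WT 1 and 2 and at 1863 and 1578 CPM in WT 3 and 4. Rps12, which lies in the small subunit, was at 825 and 772 CPM against 1692 and 1254 CPM. Rps15a, another small subunit protein, was at 603 and 532 CPM against 1237 and 896 CPM.

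Other members went the opposite way. Rpl35, a protein at the exit of the peptide tunnel, was at 139 and 134 CPM in WT 1 and 2 and at 87.8 and 74.0 CPM in WT 3 and 4. Rps7, which also binds Mdm2, the brake on p53, was at 845 and 706 CPM against 608 and 481 CPM. The median log2 difference between the ranges was 0.18 over members and 0.00 over all genes, with an SD of 0.37 among the 69 members. Each comparison with a mutant set libraries of 1 range against WT libraries of both. Rps12 was named after its values were seen.

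Dup-L against WT held the largest shift of the family. By edgeR's quasi-likelihood test with Benjamini-Hochberg adjustment over 17655 genes, at a threshold of 0.05, 38 of 75 tested members fell and 0 rose, where 16.6% of all genes tested fell and 15.8% rose. The median log2 fold change was -0.44 over the 75 members and 0.00 over all genes. The falls ran from -0.31 to -2.18, and both subunits took part, with 21 of 45 tested large subunit genes and 17 of 30 small subunit genes. In 43 of 75 members both Dup-L libraries lay below all 4 WT libraries (24.6% of all genes did), and in 1, Rpl39, both lay above (26.4% of all genes).

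Genes of the stalk, which recruits the factors that drive the ribosome along the message, all fell. Rplp0 was at 2158, 1911, 2941 and 2304 CPM in WT 1 to 4 and at 1536 and 1309 CPM in Dup-L 1 and 2. Rplp1 was at 871, 790, 1863 and 1578 CPM in WT and at 466 and 377 CPM in Dup-L. Rplp2 was at 492, 433, 837 and 633 CPM in WT and at 290 and 243 CPM in Dup-L. For all 3 genes the groups did not overlap, and the gap to WT 1 and 2 was narrower than that to WT 3 and 4.

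The log2 fold changes of the stalk genes were -0.71 for Rplp0 (SE 0.16, edgeR adjusted p = 0.00485), -1.60 for Rplp1 (SE 0.36, adjusted p = 0.00542) and -1.17 for Rplp2 (SE 0.23, adjusted p = 0.00261). Against the WT libraries of the first number range alone, they were -0.55 (adjusted p = 0.0419), -1.01 (0.0489) and -0.82 (0.0277). Rpsa, a small subunit protein also known as a laminin receptor, was at 1867, 1465, 2125 and 1741 CPM in WT and at 1477 and 1286 CPM in Dup-L, where Dup-L 1 overlapped WT 2. Its log2 fold change was -0.38 (SE 0.14, edgeR adjusted p = 0.0442), a fall.

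The 3 largest falls past the threshold were those of Rps2, Rpl34 and Rplp1, and the first 2 rest on few reads. Rps2, a core small subunit protein, had 26, 18, 41 and 34 counts in WT and 5 in each Dup-L library (log2 fold change -2.18, SE 0.49, edgeR adjusted p = 0.00456). Rpl34, of the large subunit, had 55, 83, 97 and 70 counts in WT and 15 and 14 in Dup-L (-2.0, SE 0.54, adjusted p = 0.0116). In both genes the 2 Dup-L libraries lay below all WT libraries.

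Among members with many reads, Rps28, the gene with the shortest transcripts, fell from 468 ± 141 CPM (n = 4) to 191 ± 19.9 CPM (n = 2). Its libraries were at 405, 353, 672 and 441 CPM in WT and at 205 and 176 CPM in Dup-L (log2 fold change -1.30, SE 0.22, adjusted p = 0.00162). Rpl36, the member with the highest GC content (60.8%), was at 295, 268, 359 and 282 CPM in WT and at 139 and 106 CPM in Dup-L (-1.30, SE 0.19, adjusted p = 0.00138). Rps4l, second in GC content (60.2%), was at 55.1, 64.4, 102 and 84.9 CPM in WT and at 34.1 and 28.8 CPM in Dup-L (-1.28, SE 0.24, adjusted p = 0.0025). These 3 genes had no overlap between groups.

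Genes at the other end of GC content behaved otherwise. Rps20 (41.3% GC, and the longest mean transcript in GENCODE) was at 669, 632, 573 and 451 CPM in WT and at 658 and 551 CPM in Dup-L, inside the WT range (0.06, adjusted p = 0.795). Both properties rest on 1 GENCODE transcript of 3706 bases. The WT means of Rps20 were 581 CPM and 1033 FPKM, and FPKM above CPM implies a counted length under a kilobase. The GC content and length given for Rps20 may thus not match the counted gene. Rps27l (41.8% GC) was at 75.6, 58.6, 52.9 and 44.0 CPM in WT and at 62.4 and 57.3 CPM in Dup-L (0.05, adjusted p = 0.843). Rps15a, second in transcript length, overlapped WT as well (-0.57, adjusted p = 0.0908).

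**Figure D3:**
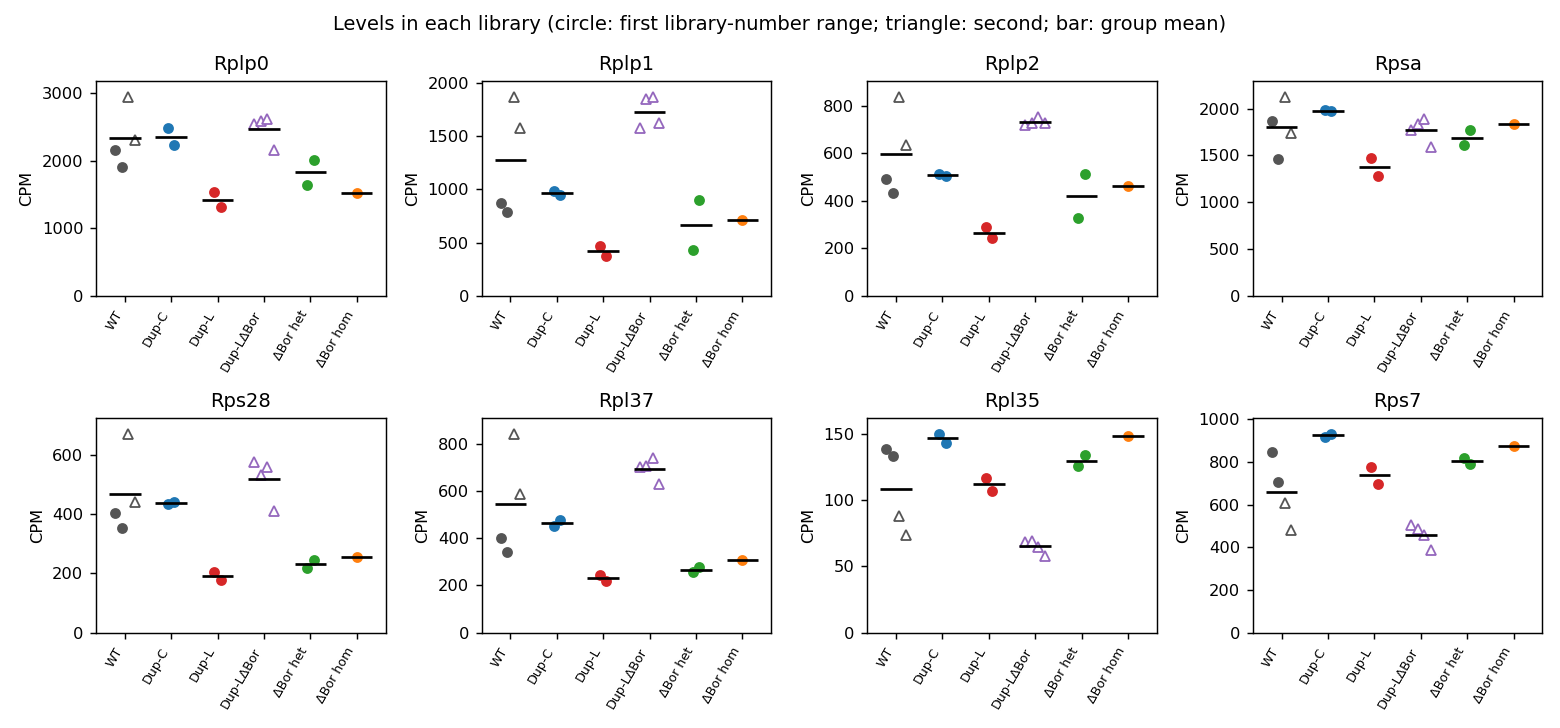
CPM of 8 members in each of 15 libraries (y axis, from 0), by group (x axis), with circles for the first number range, triangles for the second and a bar at the group mean. Rplp0, Rplp1, Rplp2, Rps28 and Rpl37 are lowest in Dup-L, while Rpl35 and Rps7 are lowest in Dup-LΔBor and differ between the WT libraries of both ranges.

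Members known for their part in disease and signalling were divided. Rpl38, needed in mice for normal patterning of the axial skeleton, was at 219, 190, 296 and 218 CPM in WT and at 145 and 130 CPM in Dup-L, and fell (-0.75, SE 0.14, adjusted p = 0.002). Rps14, the small subunit gene of the human 5q deletion syndrome, fell too (-0.60, SE 0.18, adjusted p = 0.0213), with 641 and 560 CPM in Dup-L below the lowest WT library at 663 CPM. The other 8 genes of this kind did not pass.

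Rpl5 and Rpl11, which with a small ribosomal RNA bind Mdm2, were at -0.09 (adjusted p = 0.613) and -0.21 (0.262), and with the number range as a term Rpl11 passed (-0.39, 0.0353). Rps19, the gene most often mutated in Diamond-Blackfan anaemia, was at -0.22 (0.175), and Rps6, the target of S6 kinase in the mTOR pathway, was at -0.13 (0.451). Rpl24, mutated in the Belly spot and tail mouse, was at 0.22 (0.270), Rps27a, made as a fusion with ubiquitin, at 0.21 (0.180), Rpl10, which takes part in joining the subunits, at -0.10 (0.595), and Rps7 at 0.16 (0.498).

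Paralogs were read beside the genes they resemble. Rpl3 was at -0.28 (adjusted p = 0.113), and its paralog Rpl3l was too low to test. Rpl39 was at 0.23 (0.200) and its paralog Rpl39l at 0.21 (0.809). Rps27 was at -0.90 (0.0954) on 14 to 51 counts, and Rps27l at 0.05. Outside the rule, Rpl22l1, the paralog of Rpl22, rose in Dup-L (0.97, SE 0.20, adjusted p = 0.00379; with offsets 0.37, 0.209), where Rpl22 itself did not pass (0.25, adjusted p = 0.128).

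The count of falls depended on what entered the fit. With GC content and length of each gene as offsets in each library, 19 members fell, 18 of them among the 38, where 2.77% of all genes fell. The members' median hardly moved, at -0.38, and that of all genes was 0.01. Rps28 (-1.16, adjusted p = 0.0165), Rpl36 (-0.71, 0.0201), Rplp1 (-1.19, 0.0466) and Rplp2 (-0.90, 0.0291) still passed, and Rplp0 (-0.34, adjusted p = 0.147), Rpl38 (-0.45, 0.0735) and Rps14 (-0.35, 0.258) did not. Rps20 and Rps27l, the members lowest in GC content, moved from near 0 to -0.43 (adjusted p = 0.135) and -0.47 (0.10). The value of Rps20 depends on its uncertain GC content and length. The largest fall with offsets among well-read genes was that of Rpl37 (-1.39, adjusted p = 0.0206), at 48.3% GC.

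Against WT 1 and 2 alone 23 members fell (11.1% of all genes did). Without Dup-L 2 the count was 7 (3.49% of all genes), and without Dup-L 1 it was 25 (7.85%). The genes that fell whichever library was left out were Rpl13a, Rpl28, Rpl36, Rpl37a, Rpl41, Rps28 and Rps29, 7 in all. The share of all genes that fell in each of those fits was not counted, and it cannot exceed the 3.49% given for the fit without Dup-L 2. With the Pitx1 level as a covariate 0 of 75 members passed, as did 0 of all genes (30 members had an unadjusted p under 0.05). Genotype and Pitx1 level were only partly separate in this design. WT 2 and WT 4 were also low in Pitx1 (1.83 CPM each). Their member medians were -0.12 and -0.06, against -0.23 and -0.43 in Dup-L 1 and 2. Dup-L against these WT libraries alone was not tested. With the offsets and the number range together, 0 members and 0 of all genes passed, with 33 members at an unadjusted p under 0.05.

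Among the 69 members, the log2 fold change in Dup-L fell with GC content, with Spearman's rho of -0.60 and a slope of -0.68 per 10 percentage points. Over 15724 genes with a GC value rho was -0.72 and the slope -0.59. GC content and length together accounted for 40.9% of the variance among members and 40.4% among all genes. With transcript length, rho was 0.43 among members but 0.05 over all genes, and 62 of the 69 lie in the shortest of 5 equal classes of all genes by length. These values describe genes that share libraries and are not independent.

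In 5 equal classes of all genes by GC content, from low to high, the median log2 fold change of all genes was 0.45, 0.20, -0.04, -0.26 and -0.51. The members in the same classes, 2, 17, 20, 19 and 11 genes, had medians of 0.05, -0.09, -0.31, -0.65 and -0.74, below all genes in each class. Counts of members that fell were 0, 4, 8, 16 and 8. The slope of the family was thus close to that of other genes, and its median was lower in each class, the lowest of which held 2 members, Rps20 and Rps27l.

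With the offsets the rho with GC content was -0.09 among members and the medians in the 5 classes were -0.45, -0.32, -0.35, -0.38 and -0.35. The spread of the members, an SD of 0.48, dropped to 0.38, and rho with length stayed at 0.35. What remained was a shift of like size in each GC class plus gene-to-gene differences, such as Rpl37 and Rpl37a (-1.39 and -1.0) against Rpl39 and Rpl22 (0.10 and 0.07) at nearby GC content. Rpl37a, Rpl39 and Rpl22 were picked here after their values were seen.

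**Figure D4:**
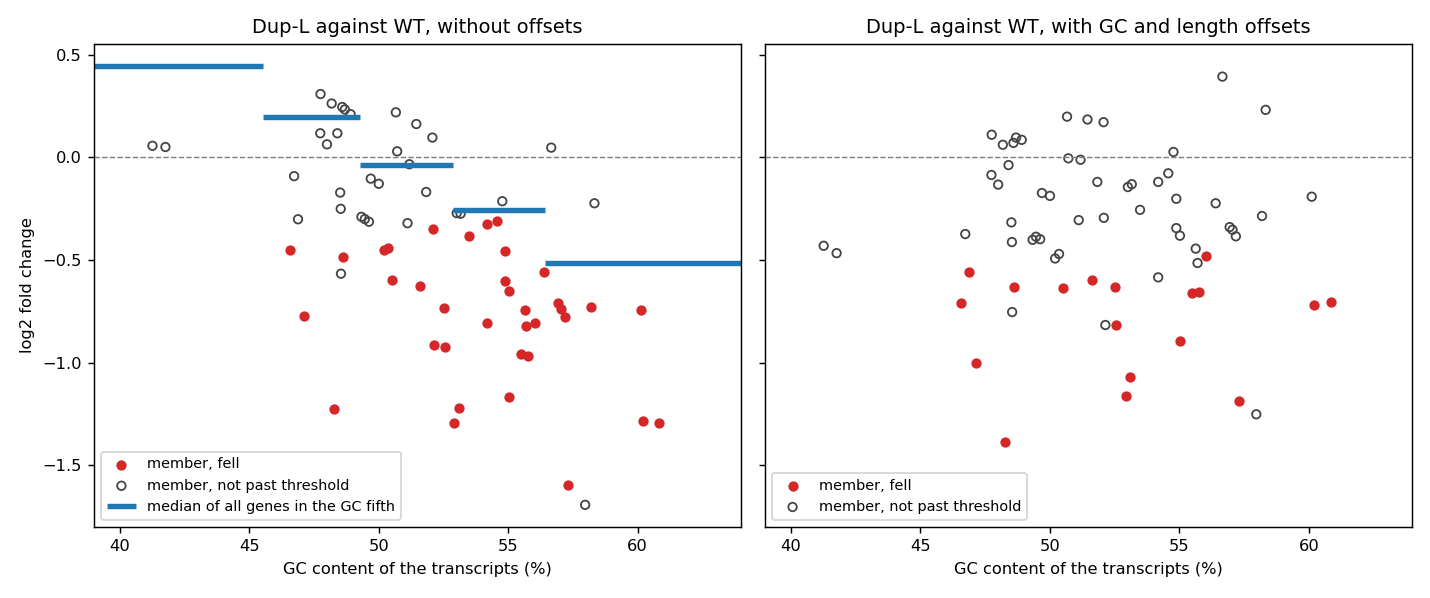
Log2 fold change of the 69 members in Dup-L against WT (y axis) by GC content of the transcripts in percent (x axis), without offsets on the left and with GC and length offsets on the right. On the left members sit mostly below the blue bars, the medians of all genes in each GC class (0.45 to -0.51), and on the right the slope with GC content is gone (rho -0.09) while most members stay below 0.

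Genes that work with the ribosome were read from lists, as counts past the threshold in Dup-L beside the 16.6% of all genes that fell and the 15.8% that rose. Of 23 tested translation factors and relatives with pyrimidine starts, 3 rose and 7 fell (median -0.02). Eef2, which moves the ribosome along the message, fell (-0.82, adjusted p = 0.00226), as did Fau, which encodes a small subunit protein fused to a ubiquitin-like one (-0.83, 0.00186), and Eif4a2, a helicase of initiation, rose (0.77, 0.00219). With GC and length offsets 0 rose and 1 fell (median -0.18), and none of these 3 genes passed (adjusted p = 0.0778, 0.0568 and 0.177).

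Of 47 ribosome biogenesis genes 11 rose and 18 fell (median -0.06), with falls of Bop1 (-0.88, edgeR adjusted p = 0.00143) and Fbl, the nucleolar fibrillarin (-0.79, 0.00181). Taf1d, of the same list, rose (0.80, 0.00195). With offsets 2 rose and 3 fell (median -0.11), and Bop1 passed (adjusted p = 0.0429) where Fbl (0.0840) and Taf1d (0.0748) did not. Of 18 regulators of mTOR and Myc signalling 3 rose and 6 fell, among the falls Rptor (-0.77, 0.00297), Mtor (-0.68, 0.00229) and Tsc2 (-0.63, 0.00143). With offsets 0 rose and 1 fell, and none of Rptor (0.156), Mtor (0.145) and Tsc2 (0.0644) passed. Of 75 mitochondrial ribosome genes 5 rose and 16 fell (median -0.05), and of 72 nuclear genes of the respiratory chain 4 rose and 29 fell (median -0.27), among them Uqcrq, a subunit of complex III (-1.42, 0.00138). With offsets 4 mitochondrial ribosome genes and 14 respiratory chain genes fell, with 1 rise in each list, and Uqcrq passed (0.00862).

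Markers of other cells also moved in Dup-L, where 16.6% of all genes fell and 15.8% rose. Surface ectoderm had 6 of 9 genes that fell, with a summed level of 617 and 456 CPM against 622 to 983 CPM in WT. Nerve and glia had 5 of 8 that fell and 1 that rose, with 111 and 109 CPM against 145 to 171 CPM. Endothelium had 4 of 8 that fell and 1 that rose, with 293 and 286 CPM against 311 to 400 CPM. Erythroid genes had 1 of 8 tested that fell, with 2399 and 1691 CPM against 1786 to 5026 CPM, and Hbb-b1, Hbb-bs and Hbb-bt were listed at 0. Skeletal muscle had 0 of 9 and macrophages 1 of 7. The median log2 fold changes were -0.62 for surface ectoderm, -0.55 for nerve and glia and -0.68 for erythroid genes, lower than the -0.44 of the ribosomal protein genes. Those of endothelium (-0.25), skeletal muscle (-0.405) and macrophages (-0.09) were higher, as was that of cartilage (-0.09, with 1 of 9 genes that fell). With GC and length offsets 0 genes of these lists passed. The medians of surface ectoderm, nerve and glia and erythroid genes were then -0.32, -0.06 and -0.72. Those of endothelium, skeletal muscle, macrophages and cartilage were -0.16, -0.135, 0.02 and -0.05. The part of these cells in the ribosomal protein result was not tested, and in bulk tissue fewer cells of a type and less RNA per cell cannot be told apart.

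In Dup-C against WT, 0 of 75 members passed in edgeR, where 0.00566% of all genes, 1 gene, rose. An unadjusted p under 0.05 was reached by 22 members and by 2933 of the 17655 genes, and DESeq2 and limma called 0. The median was 0.14, and in 22 members both Dup-C libraries lay above all WT libraries (10.9% of all genes). The lowest unadjusted p-values were those of Rps25, a small subunit protein (0.57, SE 0.16), and Rpl22 (0.43, SE 0.12), both with an edgeR adjusted p of 0.251, a value that other members shared. Rps25 was at 504 and 573 CPM in Dup-C and at 466, 382, 322 and 281 CPM in WT, all WT libraries lower but WT 1 close to Dup-C 1.

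One WT library decided the Dup-C count. Without WT 1, 14 members rose, where 5.51% of all genes rose. With the Pitx1 level as a covariate the members' median in Dup-C was 0.00, and with the number range as a term it was 0.23.

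In Dup-LΔBor against WT, 4 of 75 members fell and 0 rose, where 1.6% of all genes fell and 2.25% rose, and the members' median was -0.01. Rpl35 was at 68.4, 69.1, 65.1 and 58.0 CPM in R2 to R5 and at 139, 134, 87.8 and 74.0 CPM in WT (log2 fold change -0.74, SE 0.16, edgeR adjusted p = 0.029). Rps7 was at 506, 487, 457 and 387 CPM against 845, 706, 608 and 481 CPM (-0.52, SE 0.14, 0.049). The other falls were those of Rps20 (-0.50, adjusted p = 0.0329) and Rps25 (-0.49, 0.0486), which was named after its values were seen in this comparison.

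All 4 genes are among those lower in WT 3 and 4 than in WT 1 and 2, and Dup-LΔBor shares the number range of WT 3 and 4. Against WT 3 and 4 alone 0 of the 75 passed, and the fold changes were smaller, with Rpl35 at -0.31 (adjusted p = 0.206), Rps20 at -0.32 (0.260), Rps7 at -0.25 (0.407) and Rps25 at -0.22 (0.352). With GC and length offsets 1 gene, Rpl35, fell (-0.77, adjusted p = 0.0234), where 2.73% of all genes fell. Leaving out any of R2 to R5, WT 1 or WT 2 gave 0 members, where 0.46% to 1.83% of all genes were called. Leaving out WT 3 gave 9, with 3 rises and 6 falls, where 2.65% of all genes rose and 3.53% fell. Leaving out WT 4 gave 6, all falls (3.97% of all genes fell).

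The stalk genes did not pass in Dup-LΔBor. Rplp1 was at 1574, 1846, 1867 and 1627 CPM, near WT 3 and 4 and above WT 1 and 2, and Rplp0 was at 2537, 2592, 2608 and 2160 CPM. R5 was the lowest of the 4 libraries in Rplp0, Rps28 and Rps7, and its share of ribosomal protein reads was also the lowest.

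In ΔBor het against WT, 9 of 75 members fell and 0 rose, where 1.78% of all genes fell and 2.25% rose, with a median of -0.13. The 3 largest falls were in Rpl13a, Rpl37 and Rps28. Rpl13a, a large subunit protein that also silences messages of inflammation, was at 9.44 and 7.60 CPM in ΔBor het and at 18.0, 16, 25.7 and 18.6 CPM in WT (-1.20, SE 0.18, adjusted p = 0.00687). Rpl37 was at 257 and 277 CPM against 402, 340, 843 and 590 CPM (-1.03, SE 0.27, 0.0495). Rps28 was at 217 and 247 CPM against 405, 353, 672 and 441 CPM (-1.01, SE 0.21, 0.0357).

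For these 3 genes both ΔBor het libraries lay below all WT libraries, as was so for 18 of 75 members (13.3% of all genes), while 7 lay above (13.5% of all genes). The stalk genes did not pass and differed between the 2 libraries, with Rplp1 at 433 CPM in ΔBor het 1 and 902 CPM in ΔBor het 2. All 9 genes that fell here also fell in Dup-L, a comparison that shares the WT libraries. Without ΔBor het 1, which leaves 1 library in the group, the median was -0.04 over members and -0.03 over all genes. Without WT 3 the count was 2 (1.16% of all genes were called), and without WT 4 it was 1 (0.318%). Without WT 2 it was 15, all falls (2.54% of all genes fell). Without WT 1 it was 20, with 6 rises and 14 falls, where 7.95% of all genes rose and 6.2% fell. Against WT 1 and 2 alone it was 1, Rpl13a (-1.01, adjusted p = 0.0348), where 0.139% of all genes fell. With GC and length offsets it was again Rpl13a alone (-0.94, adjusted p = 0.0408), where 0.198% of all genes fell.

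ΔBor hom is 1 library, tested on the assumption that it varies like the other groups. By edgeR 0 of 75 members passed, where 0.901% of all genes rose and 0.374% fell. Of the members 23 had an unadjusted p under 0.05, as did 4697 of all genes. DESeq2 called 8 (5.69% of all genes), limma 0, and the median was -0.03. The lowest p-values were those of Rpl39 (651 CPM against 333 to 446 CPM in WT, log2 fold change 0.70, SE 0.17, adjusted p = 0.0504) and Rpl13a (9.94 CPM, -0.98, SE 0.23, adjusted p = 0.0506). Both lay outside the WT range, just on the far side of the threshold, and without WT 1 the count was 13, with 8 rises and 5 falls, where 10% of all genes rose and 5.63% fell.

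GC content entered these comparisons to unlike degrees. Among the 69 members rho between GC content and the log2 fold change was -0.44 in Dup-C, 0.25 in Dup-LΔBor, -0.44 in ΔBor het and -0.55 in ΔBor hom. Over all genes it was -0.33, 0.15, -0.58 and -0.52. With offsets the values among members were -0.21, 0.14, -0.11 and -0.18, and the members' medians, taken over 75, were 0.14, -0.02, -0.06 and 0.07, so that of the 5 comparisons Dup-L had the median farthest from 0 in both fits.

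**Figure D5:**
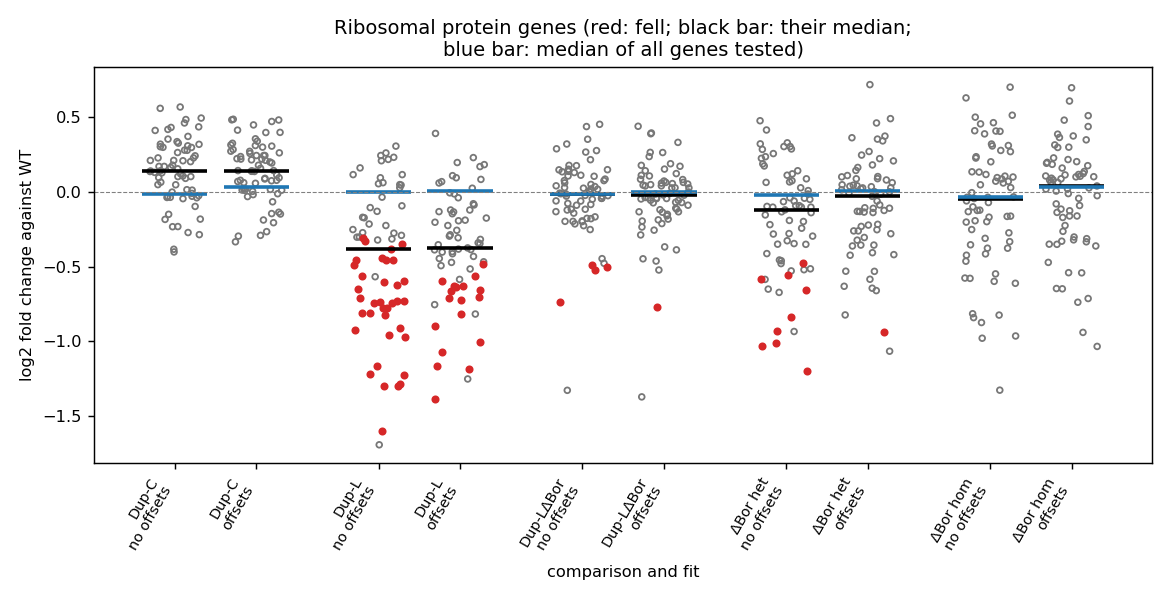
Log2 fold change against WT (y axis) of the 69 members in each comparison, without and with GC and length offsets (x axis), with red for genes that fell, a black bar at the members' median and a blue bar at the median of all genes tested. In Dup-L the black bar sits well below the blue one in both fits, and in Dup-LΔBor, ΔBor het and ΔBor hom the bars lie close together.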

How the data were processed

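Raw read counts per gene and FPKM values of E12.5 limb bud RNA were taken as the authors deposited them. The counts are whole numbers, and the FPKM values were scaled to gene length and library size by the authors. Reads were aligned with STAR to mm9, per the submitters' processing notes, which also name DESeq2 and bedtools 2.17.0. Counting tool, gene models and strand: not given in the sources used here. The E17.5 fingertip samples are not analysed here. Total counts were 34486256 to 53711742 a library, and intervals from replicates, not depth, limit the well-read members.

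Counts of all 15 libraries were fitted together in edgeR 4.0.16 (R 4.3.3, TMM scaling, robust quasi-likelihood test, 6 groups, no block), with Benjamini-Hochberg adjustment across 17655 genes. Log2 CPM used a prior count of 2. GC content and length were means over the GENCODE M21 transcripts of GRCm38, another build, matched by symbol for 89.1% of genes tested and all 78 members, so gene coordinates are given only for the RefSeq start windows, on GRCm38.p6. Offsets were fitted per library with splines of 4 degrees of freedom. Alternatives used DESeq2 1.42.0, limma 3.58.1 on log2(FPKM + 1) or log2(FPKM + 0.1), the number range as a term or alone, Pitx1 as a covariate, and each library left out. The fit was tested on simulated data.

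Named genes were the 3 largest rises and falls per comparison past the threshold (with none, the 2 lowest p), the stalk genes and Rpsa, 10 genes of disease or signalling, the paralogs, the extremes of GC content and length, and up to 3 called genes per list. Members and lists were chosen with earlier results of these data known. Same-numbered libraries did not deviate together (correlations with the same-numbered WT library of -0.18, -0.01 and 0.10 for Dup-C 1, Dup-L 1 and ΔBor het 1), so the numbers were not taken as pairs.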

Additional observations from a re-analysis of the deposited data

Results flagged for a closer look

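In 72 groups of 4 libraries, each holding 1 measure in WT or in Dup-LΔBor, the gap between the highest or lowest library and its nearest neighbour was compared with the whole range of the group, and 7 exceeded Dixon's 95% critical value for 4 values. Chance gives about 1 such case in 20 groups, and 6 of the 7 concern the same library. R5 carries the same library number as R4 in its header. In Dup-LΔBor R5 the share of counts from ribosomal protein genes was 4.66%, against 5.14% to 5.18% in R2 to R4. In R5 Rplp0 stood at 2160 CPM against 2537 to 2608 CPM, Rps14 at 896 CPM against 1060 to 1088 CPM, and Rps25 at 225 CPM against 266 to 274 CPM. Rps29 stood at 475 CPM there, against 585 to 597 CPM, and Rpl29 at 12.6 CPM, against 17.8 to 18.6 CPM. Rpl29 in WT 3, at 96.9 CPM, stood far above the 16.5 to 29.6 CPM of the other WT libraries. ΔBor het 1 was also high in Rpl29 (90.7 CPM, against 14.1 CPM in ΔBor het 2), and a second copy of the symbol in the table was high in the same libraries, with 5340 counts in WT 3 and 3728 in ΔBor het 1, against 753 to 2373 in the other WT libraries. What sets these libraries apart was not tested.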

How the results depend on the processing

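The 38 falls in Dup-L (16.6% of all genes fell) were 19 with GC and length offsets (2.77%) and 21 with those of the longest transcript (2.03%). They were 23 within the first number range (11.1%). They were 0 with offsets and number range together or with Pitx1 as a covariate, as were those of all genes. When 1 library was left out they were 7 (3.49%) to 43 (16.4%). The median, -0.44, was -0.25 with offsets and number range, -0.19 with Pitx1, and -0.24 with the replicate block and offsets. The replicate block gave 33 falls in Dup-L (17.3% of all genes fell), Rpl11 (-0.41, edgeR adjusted p = 0.0489) among them. With block and offsets it gave 17 (3.09%), where Rps27l (-0.64, edgeR adjusted p = 0.000227) and Rps20 (-0.55, 0.0283) changed sign and passed the threshold. In ΔBor het, 9 calls (4.03% of all genes were called) became 15 with DESeq2, 13 falls and 2 rises (6.03%). They became 17 falls with Pitx1 (6.33%), 2 with each limma fit (2.15% and 2.16%) and 1 with either kind of offsets (0.453% and 0.481%). The count was 1 with the number range as a term or within it (0.181% and 0.318%), and 0 with offsets and number range (0.159%). It was 0 (0.108%) to 20 (14.2%) without 1 library, 1 with the replicate block (0.451%) and 2 with block and offsets (0.836%). In Dup-LΔBor, 4 calls (3.85% of all genes were called) became 6 with DESeq2 (5.4%) or Pitx1 (7.77%), and 5 with RLE scaling (3.99%) or no count filter (2.05%). These calls were 2 with each limma fit (3.85% and 3.47%) and 1 with either kind of offsets (6.8% and 6.86%). They became 0 with the number range as a term, within it or with offsets too (0.396%, 0.392% and 0.861%), and 0 to 9 without 1 library (6.18% for the 9). The count of 0 in Dup-C ranged from 0 to 14 without 1 library (9.32% of all genes were called for the 14), and the replicate block left it at 0. In ΔBor hom, 0 became 8 with DESeq2 (5.69% of all genes were called), 1 with Pitx1 (0.736%), and 0 to 13 without 1 library (15.6% for the 13). No paired analysis was possible for Dup-LΔBor because its columns carry other numbers than its labels, nor for ΔBor hom, which is 1 library. Over all genes, the 5719 calls in Dup-L became 898 with offsets, 3036 within the number range, 1122 without Dup-L 2 and 0 with Pitx1. Of 21 named calls, DESeq2 kept 21, RLE scaling 20, no count filter 20, limma 18, the number range as a term 12, offsets 11, the number range alone 11, Pitx1 7, and offsets with number range 0. The causes of these changes were not tested. The longest-transcript offsets and a restriction to the 69 members above 10 CPM, with 36 falls in Dup-L, were chosen after seeing the data. Low counts limit Rps2, Rpl34, Rps27 and Rpl26.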

Other observations

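Several genes around the ribosome passed in more than 1 comparison, all against the same 4 WT libraries, among them Rpl22l1, Eif3e, Taf1d and Bop1. Taf1d rose in Dup-L (0.80, edgeR adjusted p = 0.00195) and ΔBor het (0.60, 0.0431), with 0.86 in ΔBor hom, which is 1 library. With offsets neither rise passed (0.33, adjusted p = 0.0748, and 0.35, 0.13). Bop1 fell in Dup-L, as given above, and in ΔBor het (-0.50, 0.0495), where it did not pass with offsets (0.298). Rpl22l1 rose in ΔBor het (1.02, edgeR adjusted p = 0.0303) and ΔBor hom (1.17, 0.0489) and fell in Dup-LΔBor (-0.68, 0.0476). With GC and length offsets the rises did not pass (0.68, adjusted p = 0.0908, and 0.69, 0.164) and the fall did (-0.52, 0.0411). Rpl22l1 also differed between WT libraries, at 111 and 92.7 CPM in WT 1 and 2 and 71.6 and 61.7 CPM in WT 3 and 4, and R5 (64.3 CPM) lay above WT 4. Eif3e, a subunit of an initiation factor, rose in ΔBor het (0.62, 0.0305) and ΔBor hom (0.85, 0.0384), and with offsets it did not pass (0.24, 0.311, and 0.38, 0.225). In Dup-LΔBor, Myc, a driver of ribosome production, fell (-0.62, 0.0280) and Mdm2 rose (0.32, 0.0478), while Rpl5 and Rpl11 were not among the 4 members that passed there.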
